A study of Rattus norvegicus with 2 samples.

Results

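The cytochrome P450 genes were examined on arrays of thymus RNA from male Sprague-Dawley rats, 8 weeks old by the methods. The cocaine group received cocaine at 20 mg/kg intravenously on each of 7 days, and the other group was the control. The labels call the control unstimulated and the methods give it saline by the same route. Each RNA was hybridized to 1 Clariom S array, which reads a transcript cluster through several short probes. The note on RNA extraction names spleen, while the sample titles name thymus, and both arrays carried the thymocyte genes Rag1, Dntt, Cd4 and Cd8a at a log2 intensity of 16.40 or more. The genes were chosen by name alone, as symbols made of Cyp, a number, letters and a number, with no measured value used. This gave 62 genes, each with 1 transcript cluster, of 23188 transcript clusters in all, of which 15049 had a gene name. Each group had 1 array, and whether its RNA came from 1 rat or from several is not given in the sources used here. The spread between rats is therefore unknown, no difference could be tested and precision is limited by the number of arrays.

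Cytochrome P450 enzymes are heme proteins that insert 1 oxygen atom into a substrate, drawing electrons from a reductase. Enzymes of families 1 to 3 mostly oxidize drugs and other foreign compounds and are most abundant in liver, where they are induced through the receptors Ahr, Nr1i2 (PXR) and Nr1i3 (CAR). The other families act on the body's own compounds, such as fatty acids, steroid hormones, bile acids, retinoic acid and vitamin D. In the body, cocaine is mainly hydrolyzed by esterases, and a smaller part is N-demethylated to norcocaine by P450 enzymes, which in human include the 3A subfamily. Of the 62 genes, 34 belonged to families 1 to 3 and 28 to other families.

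Most P450 genes were dim on both arrays. The median log2 intensity was 5.01 on the control array and 4.93 on the cocaine array, against 6.75 on each array for all transcript clusters. Of the 62 genes, 56 (90.3%) lay in the dimmer part, below the overall median, and 35 were among the dimmest 25% by mean intensity. The files used here hold no detection call, so 1204 rows of smell, taste, trace amine and vomeronasal receptor genes, whose products act mainly in sensory tissues, served as a yardstick. Their 95th percentile was a log2 intensity of 6.59 in the control array and 6.53 in the cocaine array, and is called the receptor floor here. Above it lay 6 of the 62 P450 genes on the control array and 8 on the cocaine array. Of all transcript clusters, 47.8% lay at or below it on the control array and 47.0% on the cocaine array. Probe sets differ in how strongly they respond, so such ranks order intensities and not the number of transcripts.

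The 6 genes above the receptor floor on both arrays were Cyp4f5, Cyp4v3, Cyp20a1, Cyp4f6, Cyp2r1 and Cyp2s1. Cyp4f5, of a subfamily that oxidizes leukotrienes and fatty acids, had a log2 intensity of 10.52 in control thymus and 10.11 with cocaine. It was the brightest P450 gene, at percentile 82.5 of all transcript clusters in the control array and 79.7 in the cocaine array. Cyp4f6, of the same subfamily and the same gene cluster on chromosome 7, was 7.90 and 7.84. Cyp4v3, the rat counterpart of a human fatty acid hydroxylase gene, was 9.08 in control thymus and 9.0 with cocaine. Cyp20a1, an orphan P450 without an established substrate, was 8.45 and 8.40, and its deposited values were equal. Only 2 of the 6 belonged to families 1 to 3. These were Cyp2r1, which makes 25-hydroxyvitamin D and thus acts on a vitamin rather than on drugs (7.48 and 7.45, equal as deposited), and Cyp2s1, a P450 of epithelia outside the liver (7.17 and 7.23). Above the floor on the cocaine array only were Cyp1b1, at 6.88, and Cyp4f17, at 6.56 with equal deposited values, while on the control array both were 6.52. The plot of all 62 genes sets these levels side by side.

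**Figure D1:**
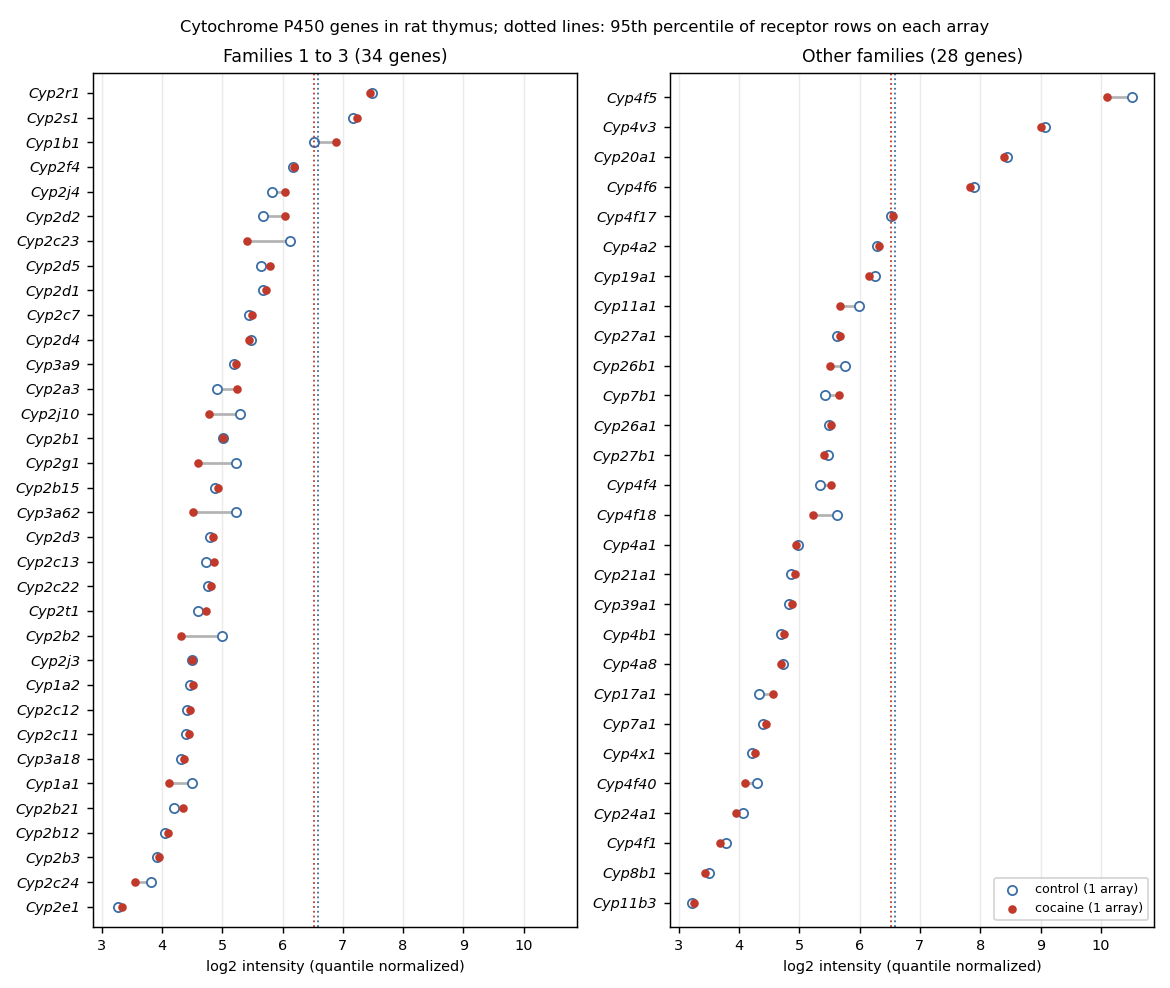
Log2 intensity of each P450 gene in the control group (open circles) and the cocaine group (filled circles), 1 array each, for families 1 to 3 (left) and the other families (right), in order of mean intensity. The dotted lines mark the receptor floor, 6.59 in control thymus and 6.53 in the cocaine array, and 54 of the 62 genes lie below it on both arrays.

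As a sequence feature that the choice of genes did not use, the 250 bases before the annotated gene start were read from RefSeq (GRCr8). A promoter sequence was matched by gene number for 51 of the 62 genes. The dinucleotide CG, which reads the same on both strands, was counted in each. Sequences of 6 genes are shown to let bright and dim genes be compared, in lower case with each CG in capitals, 5′ to 3′. Cyp20a1 (chr9:69249623-69249872 on the plus strand) and Cyp2s1 (chr1:90453074-90453323 on the minus strand) lay above the receptor floor on both arrays, Cyp1b1 (chr6:21094315-21094564 on the plus strand) on the cocaine array, and Cyp4f5 (chr7:12194387-12194636 on the plus strand) was the brightest gene. Cyp2c23 (chr1:252863068-252863317 on the minus strand) had the lowest cocaine minus control difference of the 62 genes, and Cyp2e1 (chr1:205269717-205269966 on the plus strand) was among the dimmest.
Cyp20a1: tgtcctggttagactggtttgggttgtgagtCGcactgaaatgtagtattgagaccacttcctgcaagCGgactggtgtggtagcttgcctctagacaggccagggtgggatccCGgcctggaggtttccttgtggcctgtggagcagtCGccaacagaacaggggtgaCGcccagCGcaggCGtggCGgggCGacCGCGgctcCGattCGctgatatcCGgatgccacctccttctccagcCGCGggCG
Cyp2s1: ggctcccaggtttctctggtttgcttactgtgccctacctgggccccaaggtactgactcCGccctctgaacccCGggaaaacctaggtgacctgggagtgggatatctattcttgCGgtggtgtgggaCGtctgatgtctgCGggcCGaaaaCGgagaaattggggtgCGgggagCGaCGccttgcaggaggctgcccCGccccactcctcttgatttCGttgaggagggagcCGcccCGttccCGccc
Cyp1b1: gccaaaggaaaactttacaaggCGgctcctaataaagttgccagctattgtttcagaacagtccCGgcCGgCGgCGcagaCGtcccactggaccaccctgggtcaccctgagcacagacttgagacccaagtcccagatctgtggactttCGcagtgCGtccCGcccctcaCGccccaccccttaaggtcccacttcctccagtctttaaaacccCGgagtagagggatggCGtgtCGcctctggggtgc
Cyp4f5: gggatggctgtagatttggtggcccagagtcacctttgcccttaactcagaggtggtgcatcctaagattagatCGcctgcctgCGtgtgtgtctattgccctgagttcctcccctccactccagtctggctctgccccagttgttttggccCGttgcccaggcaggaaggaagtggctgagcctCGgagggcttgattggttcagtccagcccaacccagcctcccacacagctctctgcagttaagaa
Cyp2c23: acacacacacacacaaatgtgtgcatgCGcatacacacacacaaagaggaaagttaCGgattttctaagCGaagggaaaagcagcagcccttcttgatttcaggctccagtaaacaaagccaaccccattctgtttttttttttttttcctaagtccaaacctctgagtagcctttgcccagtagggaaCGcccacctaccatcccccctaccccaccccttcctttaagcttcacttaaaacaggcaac
Cyp2e1: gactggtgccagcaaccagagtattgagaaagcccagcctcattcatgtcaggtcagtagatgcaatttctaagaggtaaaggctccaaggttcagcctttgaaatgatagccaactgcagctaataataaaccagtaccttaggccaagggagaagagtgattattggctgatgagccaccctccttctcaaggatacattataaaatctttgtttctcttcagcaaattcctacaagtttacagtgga

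The first 3 sequences hold 17, 15 and 13 CG dinucleotides, while those of Cyp4f5 and Cyp2c23 hold 4 each and that of Cyp2e1 holds 0. For the 5 genes above the receptor floor on both arrays that had a sequence, the count ranged from 4 to 17 with a median of 11. For the other 46 P450 genes, which include Cyp1b1, it ranged from 0 to 18 with a median of 2. The dim gene with the highest count was Cyp26a1, with 18. No CG was found in this window for 8 of the 51 genes, among them Cyp2c11, Cyp2c12 and Cyp1a2, while 92.5% of all 27457 promoters held at least 1. Families 1 to 3 made up 6 of these 8 genes and 33 of the 51. Across the 51 genes, Spearman's rho between CG count and mean log2 intensity was 0.42. Across 12396 other named transcript clusters on the same 2 arrays it was 0.45, with a median count of 17 above the receptor floor and 5 otherwise. Bright P450 genes thus had more CG dinucleotides than dim ones, as other genes on these arrays did. Cyp4f5 was the exception among the bright genes. All points share the same 2 arrays and genes are not independent replicates, so these values are a description.

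**Figure D2:**
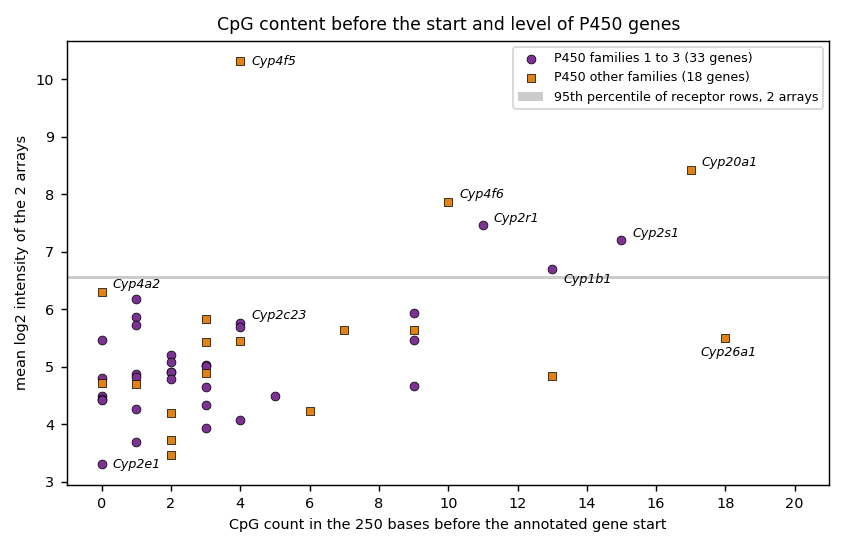
Mean log2 intensity of the 2 arrays against the number of CpG dinucleotides in the 250 bases before the annotated gene start, for the 51 P450 genes with a RefSeq promoter sequence; the gray band marks the receptor floor. Cyp20a1, Cyp4f6, Cyp2r1 and Cyp2s1 hold 10 to 17 and lie above the floor, and Cyp4f5 lies above it with 4. Cyp1b1, with 13, also lies above the band by its mean of 6.70, but passed the floor on the cocaine array only.

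By the limit of 1.5-fold, 4 of the 62 P450 genes were lower in the cocaine thymus, none was higher and 58 lay within it. Among all transcript clusters, 2.29% were lower and 1.98% were higher by as much, and among those with a mean below the median, where 56 of the P450 genes lie, 2.62% were lower and 1.86% were higher. The 4 genes make 6.45% of the 62, and 3.57% of the receptor rows were lower by as much. No P450 gene differed by more than 2-fold, which 0.151% of all transcript clusters did upward and 0.224% downward. All 4 genes belonged to families 1 to 3, with 4 of 34 there and 0 of 28 in the other families, and no test of that difference was possible.

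Cyp2c23, an arachidonic acid epoxygenase of rat kidney, had a log2 intensity of 6.12 in control thymus and 5.41 with cocaine, 1.63-fold lower. Cyp3a62, of the subfamily that oxidizes the widest range of drugs, was 5.22 and 4.52, also 1.63-fold lower. Cyp2b2, which phenobarbital induces in liver, was 4.99 and 4.32, 1.59-fold lower. The fourth, Cyp2g1, a P450 of the olfactory mucosa, was 5.23 in control thymus and 4.60 with cocaine, 1.55-fold lower. All 4 lay below the receptor floor on both arrays, and 3 of them were among the dimmest 25% by mean intensity, the exception being Cyp2c23. The gene nearest to the limit without passing it was Cyp2j10, of a subfamily of fatty acid epoxygenases, at 5.29 and 4.78. The largest positive differences were those of Cyp1b1 (0.37), Cyp2d2 (0.36) and Cyp2a3 (0.32) on the log2 scale, all within 1.5-fold.

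**Figure D3:**
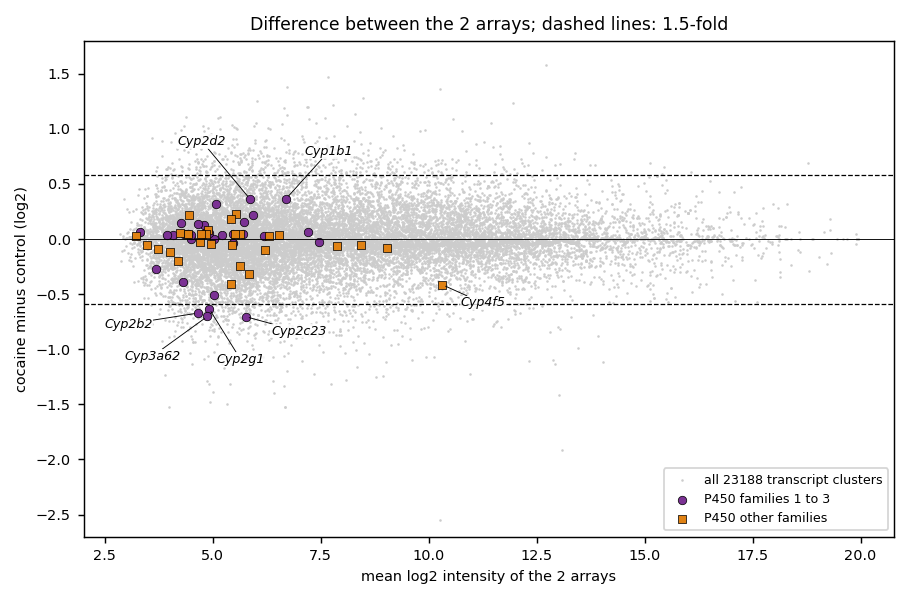
Cocaine minus control difference in log2 intensity against mean log2 intensity of the 2 arrays, for all 23188 transcript clusters (gray), P450 families 1 to 3 (purple circles) and the other P450 families (orange squares); dashed lines mark 1.5-fold. Cyp2c23, Cyp3a62, Cyp2b2 and Cyp2g1 lie below the lower line, no P450 gene lies above the upper line, and Cyp4f5 stands to the right of the other P450 genes.

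Markers of other tissues and cell types that use P450 genes were read on the same arrays. In bulk RNA, fewer cells of a type and less RNA per cell cannot be told apart. Summed intensities, here and below, are of values as deposited. Of 10 measured hepatocyte markers, Alb was lower by more than 1.5-fold (8.82 in control thymus and 7.82 with cocaine) and 9 lay within it. The summed intensity of the 10 was 924 in control thymus and 665 with cocaine, and Alb was the brightest of them. Of 6 adipocyte markers, 3 were lower by as much (Adipoq, Fabp4 and Pparg). The summed intensity of the 6 was 8438 in control thymus and 4119 with cocaine. Fabp4, at 12.87 and 11.76, was the brightest of them and weighed most in the sum. The other 3 lay within 1.5-fold and were not lower. Cidec differed by 0.29 and Lipe by 0.01 on the log2 scale, and Lep had equal deposited values. One of 9 macrophage markers was higher, Csf1r at 5.91 and 6.59, with a summed intensity of 6274 and 6773. One of 6 endothelial markers was higher, Tek at 7.01 and 7.60. None of 6 thymic epithelial and none of 7 cortical thymocyte markers passed 1.5-fold. These counts stand against 2.29% lower and 1.98% higher among all transcript clusters. The thymocyte markers Rag1, Dntt, Cd4, Cd8a and Cd8b lay at percentile 99.2 or above on both arrays, which limits what they can show. Rag1 and Dntt differed by 0 after quantile normalization, which gives equal ranks equal values, though their deposited values were not equal. The part of these cell types in the lower P450 values was not tested.

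In the deposited table, 21 of the 62 P450 genes (33.9%) carried an identical number on both arrays, as did 27.2% of all transcript clusters and 30.9% of those with a mean below the median. Of the other 41 P450 genes, 25 were lower and 16 were higher with cocaine as deposited. Among the transcript clusters with a mean below the median, 4717 were lower and 3300 were higher. The quantile normalization used here moved no P450 difference by more than 0.065 on the log2 scale. Differences smaller than that, including those of genes with equal deposited values, are therefore not read as a direction.

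Families 1 to 3 had a median log2 intensity of 4.96 in control thymus and 4.83 with cocaine, and the other families had 5.39 and 5.32. Only 2 of 34 genes in families 1 to 3 and 4 of 28 in the other families reached the overall median by mean intensity. The median cocaine minus control difference was 0.04 in families 1 to 3, -0.04 in the other families and 0.01 over all transcript clusters. The deposited values were equal for 13 genes of families 1 to 3 (38.2%) and for 8 of the other families (28.6%). The median differences were smaller than the largest change made by the scaling.

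The 3 genes of family 1 are the classical targets of Ahr, the receptor for dioxins and polycyclic aromatic compounds. Cyp1a1, which oxidizes aromatic hydrocarbons, had a log2 intensity of 4.50 in control thymus and 4.11 with cocaine. Cyp1a2, which acts on caffeine and arylamines in liver, was 4.47 and 4.51, with equal deposited values. Cyp1b1, a P450 of tissues outside the liver that also hydroxylates estradiol, was 6.52 and 6.88. The 3 genes thus differed in opposite directions or not at all, each within 1.5-fold. Cyp1a1 and Cyp1a2 lay below the receptor floor on both arrays and Cyp1b1 on the control array, which limits what these values can show. The receptor gene Ahr was 9.22 and 9.21, and its partner Arnt was 11.97 in control thymus and 12.07 with cocaine. Ahrr, the repressor of this receptor, was 4.02 and 4.35, and the Ahr target Nqo1 was 5.43 and 5.47, equal as deposited. Both lay below the floor on both arrays, as did the further Ahr target Aldh3a1 (5.61 and 5.58). The Ahr targets Gsta1 (7.42 and 7.40, equal as deposited) and Slc7a5 (9.29 and 9.36) lay above it on both arrays. The core of the Ahr binding element, GCGTG or CACGC on the other strand, which always contains a CG, was found in 25.5% of the 51 P450 promoter sequences and in 27.2% of all 27457. The sequence of Cyp1b1 shown above holds it 2 times, and that of Cyp1a2 does not hold it in this window.

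Family 2 was the largest, with 28 genes, and 3 of the 4 lower genes belonged to it. Cyp2e1, which oxidizes ethanol and small solvents, was at percentile 0.405 of all rows by mean intensity, with 3.27 in control thymus and 3.34 with cocaine. All 6 genes of the 2b subfamily, known for induction through Nr1i3, were among the dimmest 25% by mean intensity. Cyp2b2 apart, they differed by 0.15 or less. The row annotated as Cyp2b1 (5.02 on both arrays) carries an identifier of chromosome 7 and lies between rows of Ndufb9 and Sqle, while RefSeq places Cyp2b1 on chromosome 1. The rows of Cyp2b15 (4.88 and 4.93) and Cyp2c7 (5.45 and 5.49, equal as deposited) also lie among rows of another locus on chromosome 1. What these 3 rows measure was not tested, and the counts of genes past 1.5-fold were the same without them. The rows of Cyp4f17, Cyp2j4 and Cyp2j10 were kept, though for each only 1 of 8 named neighbors belonged to a gene within 5 Mb. For Cyp2j4 and Cyp2j10 that neighbor was each other. What the kept rows measure was not tested either.

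Of the 7 genes of the 2c subfamily, which in rat liver includes enzymes with sex-specific levels, 4 held equal deposited values. These included Cyp2c11, the male-specific testosterone hydroxylase of rat liver (4.40 in control thymus and 4.45 with cocaine), and Cyp2c12, its female-specific relative (4.42 and 4.46). Cyp2c23 was the brightest of the 7 in the control array. Cyp2c13 was 4.74 and 4.87, and Cyp2c24 was 3.82 and 3.56. The 5 genes of the 2d subfamily lie next to each other on chromosome 7. Cyp2d2, which hydroxylates debrisoquine in rat, was 5.68 in control thymus and 6.04 with cocaine, and Cyp2d5 was 5.64 and 5.80. The other 3, Cyp2d1, Cyp2d3 and Cyp2d4, differed by 0.053 or less. Genes of the 2b, 2c, 2d and 3a subfamilies are close in sequence, and how far their probes cross-hybridize was not tested.

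A cluster of 9 genes on chromosome 1 holds Cyp2s1, Cyp2b2, Cyp2b3, Cyp2b21, Cyp2b12, Cyp2g1, Cyp2a3, Cyp2f4 and Cyp2t1. RefSeq places Cyp2b1 and Cyp2b15 in the same span, and their rows, placed away, are not counted in it. Differences in the cluster ran from -0.67 to 0.32 on the log2 scale. Cyp2b2 and Cyp2g1, of the 4 genes lower by more than 1.5-fold, both belonged to it, while Cyp2a3, a nasal and lung enzyme, was 4.92 in control thymus and 5.24 with cocaine. Cyp2f4, a naphthalene-oxidizing P450 of lung, was 6.17 and 6.20 with equal deposited values, and Cyp2t1 was 4.59 and 4.73. Of the 3 genes of the 2j subfamily on chromosome 5, Cyp2j4 was 5.82 and 6.04, Cyp2j3 was 4.49 and 4.50, and Cyp2j10 was the lower one described above. These neighbors also did not move in 1 direction.

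The 3a subfamily, which in human carries much of the N-demethylation of cocaine, had 3 genes here under the symbol pattern. A further gene, Cyp3a23-3a1, falls outside the pattern and was 5.23 in control thymus and 5.59 with cocaine. Apart from Cyp3a62, Cyp3a9 was 5.19 in control thymus and 5.23 with cocaine and Cyp3a18 was 4.32 and 4.37, both with equal deposited values. Cyp3a2 was not analysed here. The 3 genes of the pattern and Cyp3a23-3a1 all lay below the receptor floor on both arrays. Nr1i2, the receptor that induces this subfamily, was 5.58 and 5.17, and Nr1i3 was 6.26 and 6.30 with equal deposited values. None of the 11 genes in the list of xenobiotic receptors and their partners differed by more than 1.5-fold, and Rxra, the partner of both receptors, was 8.36 and 8.31, equal as deposited.

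Genes of esterases, the enzyme class that mainly hydrolyzes cocaine, and of flavin monooxygenases were read beside them. Which of these enzymes act on cocaine in rat thymus was not tested. Bche, which encodes butyrylcholinesterase, was 5.96 in control thymus and 5.86 with cocaine. Of 13 measured genes of esterases and flavin monooxygenases, none passed 1.5-fold and 5 lay above the receptor floor on each array. At or below that floor lay 47.8% of all transcript clusters on the control array and 47.0% on the cocaine array. The carboxylesterase gene Ces1a was 7.10 and 6.86, and the flavin monooxygenase genes Fmo1 and Fmo2 were 8.71 and 8.65, and 7.96 and 7.83. The highest difference in this list was that of Ces1c, at 3.87 and 4.36, below the floor on both arrays.

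P450 enzymes need electron donors. Por, the reductase of all microsomal P450 enzymes, had a log2 intensity of 9.29 in control thymus and 9.22 with cocaine, equal as deposited. Cyb5a, which encodes the donor cytochrome b5, was 9.31 and 9.26, and its reductase gene Cyb5r3 was 9.69 and 9.20. Fdx1, the ferredoxin of mitochondrial P450 enzymes such as Cyp11a1, was 7.90 in control thymus and 8.65 with cocaine, 1.68-fold higher. It was the only 1 of 9 measured genes of electron transfer past 1.5-fold, which 1.98% of all transcript clusters passed upward. All 9 lay above the receptor floor on both arrays, unlike most P450 genes. Of all transcript clusters, 47.8% lay at or below that floor on the control array and 47.0% on the cocaine array. Fdxr was not analysed here.

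**Figure D4:**
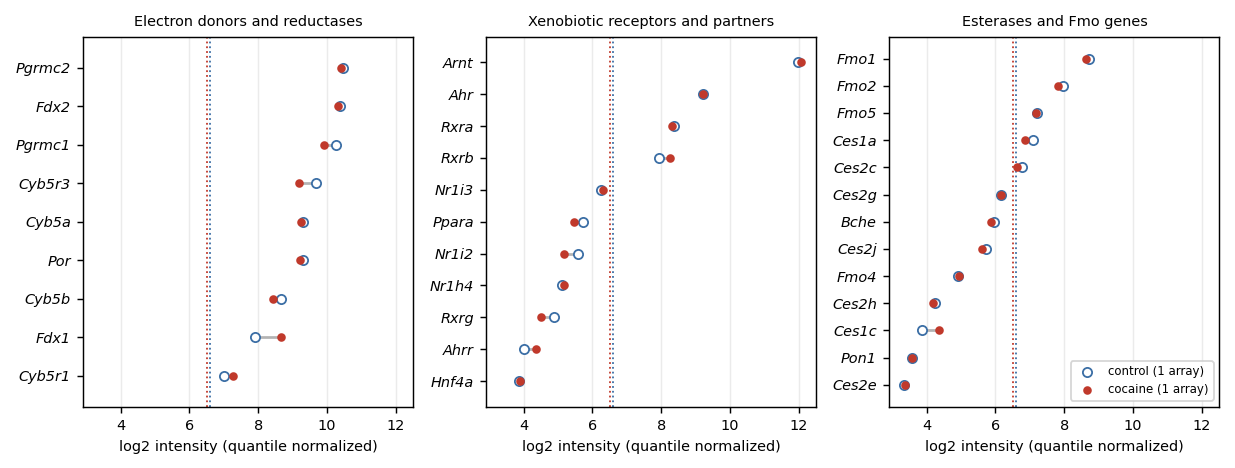
Log2 intensity in the control group (open circles) and the cocaine group (filled circles), 1 array each, for measured genes of electron donors and reductases (9 genes), xenobiotic receptors and their partners (11) and esterases and flavin monooxygenases (13); dotted lines mark the receptor floor of each array. Fdx1 has the widest gap among the electron donors, and all 9 of these lie to the right of the dotted lines.

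Family 4 contains fatty acid and leukotriene hydroxylases. Of its 13 genes, none passed 1.5-fold, and 3 held equal deposited values. Cyp4f5, at 1.33-fold lower, had the largest difference in the family. Cyp4f18, which in mouse inactivates leukotriene B4 in neutrophils, was 5.63 in control thymus and 5.22 with cocaine. Cyp4f4 was 5.34 and 5.53. Cyp4f40 was 4.30 and 4.10, and Cyp4f1 was 3.78 and 3.69. The 4a genes Cyp4a1 (4.98 and 4.94), Cyp4a2 (6.29 and 6.32) and Cyp4a8 (4.72 and 4.70), whose products hydroxylate fatty acids at the last carbon, differed by 0.044 or less. Cyp4b1 and Cyp4x1 held equal deposited values. Within 1 family, the level thus ran from a mean log2 intensity of 3.73 for Cyp4f1 to 10.32 for Cyp4f5.

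Of the 5 genes of steroid hormone synthesis, all lay below the receptor floor on both arrays and within 1.5-fold. Cyp11a1, the side-chain cleavage enzyme that starts steroid synthesis from cholesterol, was 6.0 in control thymus and 5.68 with cocaine. Star, which delivers cholesterol to it, was 6.95 and 6.58. Cyp17a1, of androgen and, in other species, cortisol synthesis, was 4.34 and 4.56, and the aromatase gene Cyp19a1 was 6.26 and 6.16. The 21-hydroxylase gene Cyp21a1 was 4.85 in control thymus and 4.93 with cocaine, and Cyp11b3 was 3.22 and 3.25. Of 9 measured genes in the list of steroid synthesis partners, none passed 1.5-fold, and the summed intensity of 4 adrenal cortex markers, which include Star and Cyp21a1, was 229 and 192. Cyp11b1 and Cyp11b2 were not analysed here.

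The 5 genes of bile acid and cholesterol oxidation were also below the floor. Cyp7a1, the rate-limiting enzyme of bile acid synthesis in liver, was 4.40 in control thymus and 4.44 with cocaine, equal as deposited, as were Cyp27a1 (5.62 and 5.66) and Cyp39a1 (4.83 and 4.87). Cyp7b1, which hydroxylates oxysterols, including those that guide immune cells, was 5.43 and 5.65. Cyp8b1, of cholic acid synthesis, was 3.50 and 3.44. Cyp46a1 was not analysed here.

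Among the genes for vitamin D and retinoic acid, Cyp27b1, which makes the active hormone, was 5.47 in control thymus and 5.41 with cocaine. Cyp24a1, which degrades it, was 4.06 and 3.94. Only Cyp2r1, which acts before them, lay above the receptor floor. The receptor gene Vdr was 7.35 and 6.99. Of the enzymes that clear retinoic acid, Cyp26b1 was 5.76 in control thymus and 5.51 with cocaine, and Cyp26a1 was 5.48 and 5.53 with equal deposited values. None of 13 measured genes of the retinoid pathway passed 1.5-fold, and the nearest was Rdh10, of retinal synthesis, at 8.07 and 8.60.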

How the data were processed

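Total RNA of rat thymus was measured on 2 Clariom S arrays, 1 per group, and groups were taken from the sample titles. The authors used the TAC software and deposited a linear intensity for every transcript cluster. The version, normalization and build were not given in the sources used here. Of 24834 rows, 1646 control rows were left out. The platform annotation named the rows, and all 62 P450 gene numbers matched RefSeq (GRCr8) with no symbol changed.

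Intensities were taken to log2, the 2 log2 columns were quantile normalized, and cocaine minus control differences were formed. No test was run, and counts past a fold are set against the share of all transcript clusters past it. A row was called placed away if none of the 4 named rows on each side belonged to a gene within 5 Mb of its own in GRCr8. Gene clusters joined P450 genes starting less than 500 kb apart, without rows placed away. All P450 genes could be named. Full values were given for genes past 1.5-fold, the 12 brightest, the 6 highest and 6 lowest differences at or above the 25th percentile of mean intensity, and textbook enzymes. Partner genes past 1.5-fold, main electron donors and receptors were also named. Further P450 and partner genes were described after their values had been seen. The genes and lists were chosen with earlier results of these arrays known. The steps were tested on simulated data.

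Alternatives were the values as deposited, median and lowess centring, filters on dim rows, a limit of 2-fold, other symbol and group rules and other floors. The software was pandas 2.3.3, numpy 2.4.6 and statsmodels 0.14.6 under Python 3.11.15, with matplotlib 3.10.9 for plots.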

Additional observations from a re-analysis of the deposited data

How the results depend on the processing

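No paired analysis was possible because a single array stood for each condition, and no replicate could be left out. The 4 lower and 0 higher P450 genes stayed 4 and 0 under the other 3 scalings. Taking 1 row per gene changed nothing, as each gene had 1 row. Adding 2 symbols that carry a suffix also left 4 and 0, and could not have removed a lower gene. Without the dimmest 25% of rows 1 was lower, and among rows that reached the median, or by 2-fold, 0 were lower. These settings count fewer genes or larger changes, and all 4 lower genes lay below the receptor floor on both arrays. With the 99th percentile of receptor rows as the floor, 5 P450 genes lay above it on each array in place of 6 and 8. Of all transcript clusters, 56.3% lay at or below that floor on the control array and 55.8% on the cocaine array. The median difference of all P450 genes, 0.037, was 0 as deposited, 0.016 after lowess centring, -0.040 without rows of equal deposited values and -0.042 as a mean. That of families 1 to 3, 0.043, was 0 as deposited, 0.022 with each array centred on its median, 0.018 after lowess centring and -0.042 as a mean. That of the other families, -0.036, was 0.0059 with each array centred on its median. Direction was not read from these medians. Under the other 3 scalings, no difference of the 62 P450 genes moved by more than the local spread of all differences. None of the 4 lower genes changed sign, which shifts of that size could not have caused. The leaving out of 3 rows placed away and a longer promoter window were added after the data were seen. With the 50 bases after the start included, the median CG count was 13 above the floor and 3 otherwise. Dim rows limit what these 2 arrays can show for most P450 genes.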

Other observations

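P450 genes whose symbols do not follow the pattern were read apart from the 62. Ptgis, the prostacyclin synthase of blood vessel walls, had a log2 intensity of 5.43 in control thymus and 4.72 with cocaine, 1.64-fold lower. It lay below the receptor floor on both arrays. The other 4 of these 5 genes lay within 1.5-fold. Among all transcript clusters 2.29% were lower by more than 1.5-fold, and 2.62% of those with a mean below the median. Tbxas1, which makes thromboxane in platelets and macrophages, was 5.79 and 6.05. Cyp51, the lanosterol demethylase, was 8.41 and 8.37, equal as deposited, and was the only 1 of these 5 genes above the receptor floor. Cyp3a23-3a1 was 5.23 in control thymus and 5.59 with cocaine, and Cyp2c6v1 was 4.41 and 4.33.

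Enzymes of conjugation, the step that follows oxidation of drugs, were dim in part. Of 18 measured genes, 1 was lower by more than 1.5-fold and none was higher, against 2.29% and 1.98% of all transcript clusters. Of the 18, 6 lay above the receptor floor on the control array and 7 on the cocaine array. At or below that floor lay 47.8% of all transcript clusters on the control array and 47.0% on the cocaine array. The lower gene was the sulfotransferase Sult1a1, at 7.81 in control thymus and 7.15 with cocaine, 1.58-fold lower. The glutathione transferase genes Gstp1 (11.12 and 11.26) and Gstm1 (11.12 and 11.07, equal as deposited) were the brightest of the list.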
